A study of Ovis aries with 6 samples.

Results

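In rumen epithelial (RE) cells, 96 genes lay above a set minimum level without treatment. After sodium butyrate (SB), these genes were present at no more than 0.5 times their untreated level. They were selected from the 26478 Ensembl sheep gene identifiers among the 27452 identifiers of the count table. A gene had to average at least 5 counts per 1000000 counts of the library (CPM) over the untreated controls (Con) and lie outside the 200 genes with the highest control means, which left 9826 eligible genes. Its mean normalised count (count divided by a library size factor) in SB had to be at most 0.5 times the Con mean, and its highest SB value had to lie below its lowest Con value. The 96 halved genes made up 0.977% of the eligible genes. The same values chose the genes, so their differences between Con and SB are a description and were not tested.

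The cells were primary, wild-type sheep (Ovis aries) RE cells that the laboratory had isolated earlier from newborn Hu lambs, so they stand for cultured neonatal epithelium. The 3 SB samples received 1 µM sodium butyrate for 24 h and the 3 Con samples no treatment. Both groups grew in DMEM with serum, penicillin, streptomycin, epidermal growth factor, hydrocortisone, insulin, transferrin, cholera toxin and triiodothyronine. According to the study's methods the samples of a group were separate culture wells, and separate animals per well are not stated. The spread given here is therefore that between wells. The control columns of the count table carry the abbreviation used in the study's supplement for the controls of another experiment, so their match to Con is less certain than that of SB. If they came from that experiment, treatment and experiment cannot be told apart. The Con libraries held 15869476 to 16582791 counts, and the SB libraries 16888522 to 18152857.

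The rumen epithelium is a stratified squamous lining that absorbs the short-chain fatty acids released by microbial fermentation. Butyrate is the one it uses most as a fuel, converting much of it to ketone bodies. Butyrate is also known as an inhibitor of histone deacetylases, enzymes that remove acetyl groups from histones, and exposure of cultured cells to it is known to raise the transcripts of some genes and lower those of others. The comparison of SB with Con addressed which transcripts of RE cells differ after exposure. In RNA from whole wells, fewer cells that express a gene and less RNA per cell cannot be told apart. The identifiers were not paired with gene names here, so neither the functions of the 96 genes nor the epithelial markers of the cells could be examined.

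Most of the 96 genes lay close to the limit of the selection. The SB mean was 46.4% of the Con mean in the median gene, with quartiles of 40.7% and 48.3%. It was above 45% in 58 genes, between 40% and 45% in 16, between 35% and 40% in 14, between 30% and 35% in 4, and lower still in the other 4. In 3 genes (3.13%) it was at most 25% of the Con mean. Among the 133 eligible genes that met the mirror rule (SB mean at least 2 times the Con mean, no overlap; 1.35% of eligible genes), 20 (15.0%) had an SB mean at least 4 times the Con mean. The halved genes thus included fewer large differences than the doubled genes in these libraries, a count given without a test because both lists were chosen by the size of the difference.

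**Figure D1:**
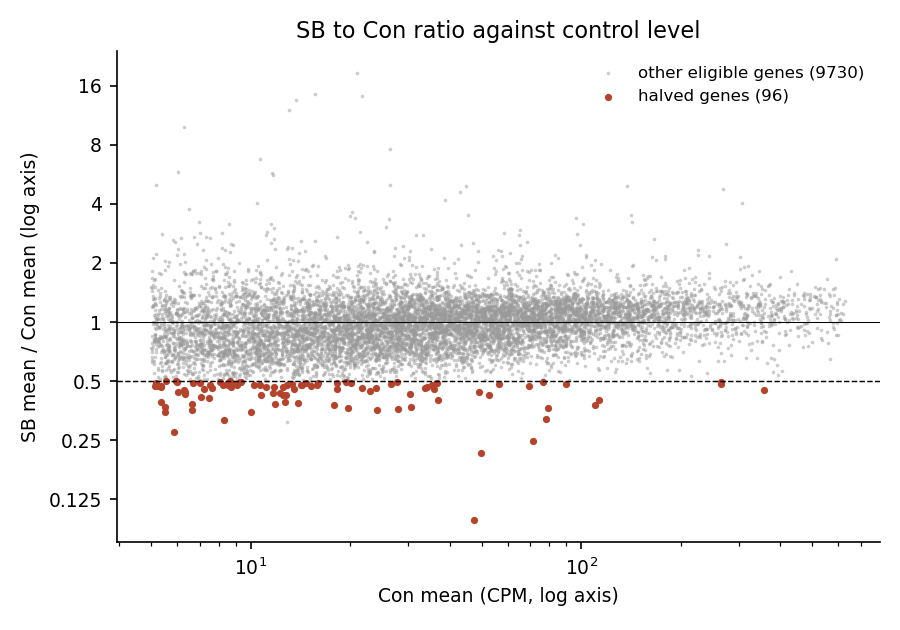
Ratio of the SB mean to the Con mean of normalised counts (vertical, log axis) against the Con mean in CPM (horizontal, log axis) for the 9826 eligible genes, with the 96 halved genes in red. The halved genes form a band just under the dashed line at 0.5, and 3 of them lie at or below 0.25.

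The gene with the lowest ratio was ENSOARG00020002318. Its normalised counts were 780, 564 and 892 in Con replicates 1 to 3 and 96.4, 65.5 and 57.3 in SB replicates 1 to 3. The lowest Con value was 5.85 times the highest SB value, the widest gap among the 96 genes. The Con mean was 745 ± 167 and the SB mean 73.1 ± 20.6 (SD over 3 samples each), so the SB mean was 9.80% of the Con mean. The DESeq2 log2 fold change was -3.35 (SE 0.290). Its coefficient of variation between wells (CV, SD divided by the mean) was 22.4% for Con and 28.2% for SB. Counting alone would give this gene 3.62% in Con and 11.8% in SB. Medians over the eligible genes from 20 to 50 CPM were 7.99% in Con and 6.90% in SB. That class was set by the Con level and had a median SB to Con ratio of 0.969, so its genes mostly had more SB counts.

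The genes that followed it in order of ratio differed less between groups. The gene with the second-lowest ratio had normalised counts of 857, 795 and 683 in Con and 192, 170 and 142 in SB, an SB mean of 21.5% of the Con mean. The next one had 1127, 1290 and 945 in Con and 311, 272 and 253 in SB, or 24.9%. In both genes, as in ENSOARG00020002318, SB replicate 1 was the highest SB sample and SB replicate 3 the lowest. The fourth gene in this order was measured at a much lower level, with 96.7, 83.3 and 95.1 normalised counts in Con and 27.5, 22.8 and 25.1 in SB. All 4 genes had a lowest Con value of more than 3 times the highest SB value.

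The gene with the highest control level was ENSOARG00020012387, with a Con mean of 358 CPM. Its normalised counts were 5162, 5493 and 6209 in Con and 2442, 2755 and 2414 in SB. The groups were well apart, since the lowest Con value was 1.87 times the highest SB value. The means were 5621 ± 536 and 2537 ± 189 (SD, n = 3 per group), an SB mean of 45.1% of the Con mean and a log2 fold change of -1.15 (SE 0.0811, DESeq2). CPM is not divided by transcript length, so it orders the genes by sequenced fragments and not by transcript number.

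**Figure D2:**
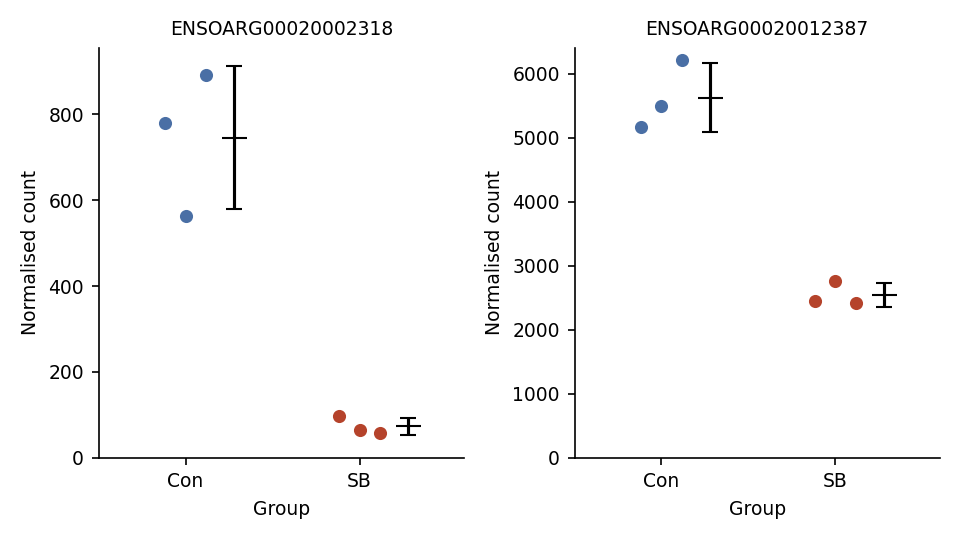
Normalised counts of ENSOARG00020002318 (left) and ENSOARG00020012387 (right) in each of the 3 Con and 3 SB samples (points), with the mean and SD of each group (bars beside the points). The SB samples lie at 57.3 to 96.4 and at 2414 to 2755, below every Con sample of the same gene, which the selection required.

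Only 5 of the 96 genes had a Con mean of at least 100 CPM. Besides ENSOARG00020012387, these comprised a gene with 4519, 4171 and 3787 normalised counts in Con and 2189, 2053 and 1931 in SB, and one with 4088, 4223 and 4153 in Con and 2125, 1898 and 1994 in SB. Their SB means were 49.5% and 48.3% of the Con means, so both sat close to the selection limit. The other 2 genes, at 113 and 110 CPM in Con, had SB means of 40.3% and 37.6% of the Con mean. The first of these had the least spread in SB of all 96 genes, with 712, 703 and 725 normalised counts in SB beside 1761, 1767 and 1781 in Con. The 5 genes together held 37.8% of the summed control CPM of the 96 genes, and the 20 highest genes held 67.3%.

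The 96 genes together made up a small part of the transcriptome in either group. They held 0.284%, 0.298% and 0.299% of all counts in Con replicates 1 to 3 and 0.111%, 0.114% and 0.109% in SB replicates 1 to 3. The Con mean was 0.294 ± 0.00829% and the SB mean 0.111 ± 0.00247% (SD over 3 samples each). The order of the groups is fixed by the selection. The 3 SB samples were close to each other, with a summed level of 43.0% to 44.0% of the Con mean on the normalised scale.

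Halved genes lay at lower control levels than eligible genes as a whole, a description that was not tested. Their median Con mean was 12.7 CPM, beside 33.6 CPM over all eligible genes and 22.5 CPM over the 133 doubled genes. A Con mean under 20 CPM was found for 64 halved genes (66.7%), for 32.6% of eligible genes and for 45.1% of doubled genes. From 5 to 10 CPM, 36 of 1362 eligible genes (2.64%) were halved, and from 10 to 20 CPM, 28 of 1846 (1.52%). The share was 0.634% from 20 to 50 CPM (19 of 2999), 0.413% from 50 to 100 CPM (8 of 1939) and 0.298% at 100 CPM and over (5 of 1680). In the doubled genes the share went from 2.42% in the lowest class to 1.19% in the highest, and doubled genes outnumbered halved genes by 20 to 5 in the highest class.

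**Figure D3:**
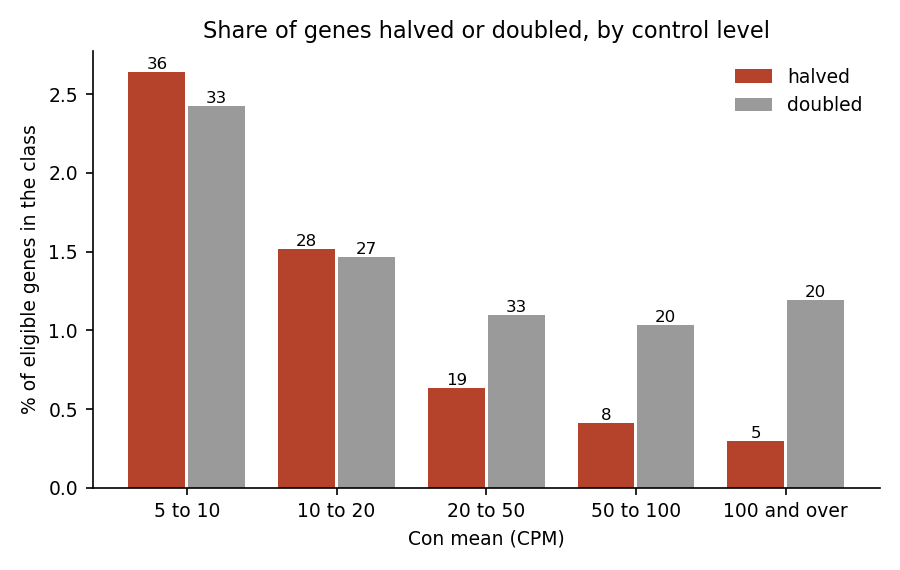
Percent of the eligible genes in each class of Con mean (CPM) that were halved (red) or doubled (grey), with the number of genes above each bar. Halved genes go from 2.64% of the lowest class to 0.298% of the highest, and doubled genes stay between 1.03% and 2.42%.

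The typical ratio of all eligible genes moved with the control level in the same direction. The median SB to Con ratio of eligible genes was 0.878 from 5 to 10 CPM, 0.901 from 10 to 20, 0.969 from 20 to 50, 1.04 from 50 to 100 and 1.10 at 100 CPM and over. A gene of the lowest class therefore needed a smaller departure from its class to reach a ratio of 0.5. When each ratio was divided by the median of its class, a comparison chosen after seeing the data, 56 genes met the rule, of which 50 were among the 96, and 172 genes met the mirror rule. The halved genes lost in this way had a median Con mean of 9.03 CPM.

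The spread between wells was close to counting error in some genes and well above it in others. The median CV over the 96 genes was 12.4% in Con and 13.6% in SB, beside a median CV expected from counting alone of 6.97% in Con and 10.97% in SB. The observed CV exceeded the counting value in 78 genes in Con and in 68 in SB. The lowest raw count of any of these genes was 63 in a Con library and 19 in an SB library, and 10 genes had fewer than 30 counts in at least 1 library. In every class of control level the halved genes had a higher median CV than eligible genes of that class, for example 17.4% beside 14.0% in Con from 5 to 10 CPM and 8.81% beside 5.54% in Con at 100 CPM and over. The selection used these same values, and in SB it left the halved genes with fewer counts than most genes of their Con level class. The part of either in this difference was not tested.

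The wells were most uneven in 2 genes. The largest spread in SB was that of a gene with 68.3, 83.3 and 100.1 normalised counts in Con and 65.7, 33.7 and 19.1 in SB, a CV of 60.3%. Its SB replicate 1 almost reached its lowest Con sample, a ratio of 1.04 and the narrowest gap of the 96 genes, and it met the rule in 3 of the 6 comparisons that each left out 1 library. The largest spread in Con was that of a gene with 787, 1078 and 445 normalised counts in Con and 288, 377 and 350 in SB, a CV of 41.2%. Its lowest Con value was 1.18 times its highest SB value, and it met the rule in 5 of these 6 comparisons.

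Over all 96 genes the lowest Con value was 1.72 times the highest SB value in the median gene. It was at least 2 times as high in 20 genes, so that any Con well had no less than 2 times the level of any SB well. It was at least 1.5 times as high in 78 genes and less than that in 18. A Con range wholly above the SB range was common among eligible genes, with 28.7% of them (2822 genes), and the 96 genes were 3.40% of these. Without the requirement of separate groups, 2 more genes met the rule.

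The 2 genes removed for overlap had a ratio below the limit but uneven controls. One had 103, 353 and 153 normalised counts in Con and 26.5, 106 and 56.3 in SB, a ratio of 0.311. The other had 161, 250 and 84.2 in Con and 86.8, 67.5 and 89.5 in SB, a ratio of 0.492. Con replicate 2 was the highest Con sample in both.

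The limit of 0.5 fell within a continuous run of values. Just inside it, 3 genes had ratios of 0.4985, 0.4991 and 0.4994. Just outside it, 3 genes had ratios of 0.5003, 0.5033 and 0.5038, and their groups did not overlap either. The outermost gene inside had 91.8, 78.5 and 90.2 normalised counts in Con and 40.2, 48.6 and 41.2 in SB, and the nearest gene outside had 167, 205 and 155 in Con and 84.7, 85.3 and 93.5 in SB. With a limit of 0.45 the set held 38 genes and with 0.55 it held 207.

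The 3 SB wells had similar levels of these genes, but the selection used the same values and required every well to lie below Con. Relative to the Con mean of each gene, the median level of the 96 genes was 42.0% in SB replicate 1, 44.8% in replicate 2 and 45.8% in replicate 3. A level of at most 50% of the Con mean was found for 76 genes in SB replicate 1, 78 in replicate 2 and 72 in replicate 3. All 3 SB wells were at or below that level in 40 genes, 2 wells were in 50 genes and 1 well was in 6 genes. SB replicate 1 was the lowest SB well in 43.8% of the 96 genes, beside 34.97% of eligible genes.

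Among the controls, Con replicate 1 tended to be the lowest for these genes. The median level was 95.1% of the Con mean in Con replicate 1, 100.2% in replicate 2 and 102.3% in replicate 3. Con replicate 1 was the lowest control in 49 of the 96 genes (51.0%), beside 37.8% of eligible genes, and the highest in 22 (22.9%), beside 37.0%. The difference between control wells was small next to that between groups, but the selection had set a minimum for the latter.

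**Figure D4:**
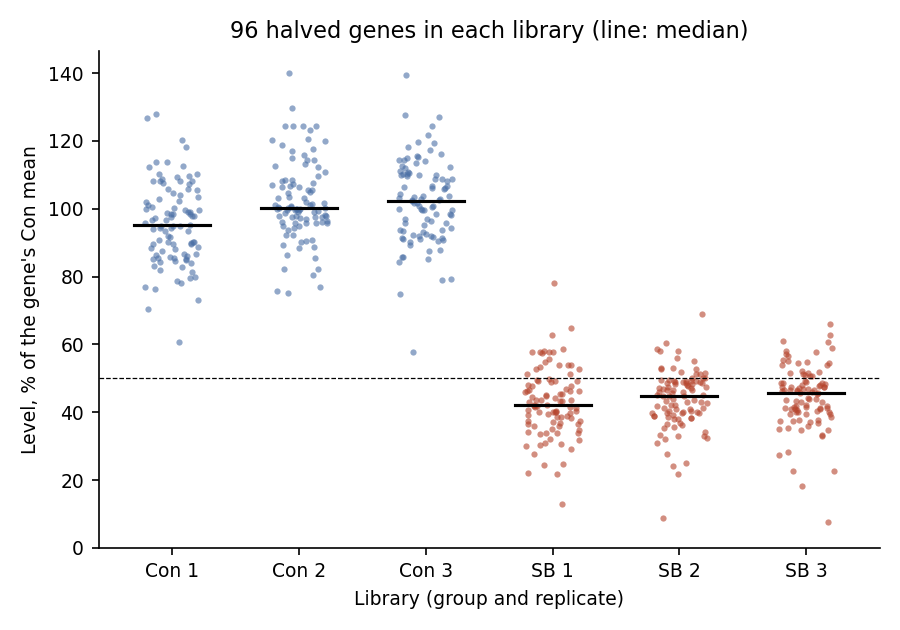
Level of each of the 96 halved genes (points) in each of the 6 libraries, as a percent of the mean of that gene over the 3 Con samples, with the median of the genes as a black line and 50% as a dashed line. Medians are 95.1% to 102.3% in Con and 42.0% to 45.8% in SB, and points above the dashed line remain in each SB library.

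Whether a gene met the rule often rested on single libraries. When each library was left out in turn and the rule was applied again, 43 of the 96 genes met it in all 6 comparisons, 22 in 5 and 31 in 4 or fewer. The lowest number was 2. Of the 38 genes with an SB mean of at most 45% of the Con mean, 32 met the rule in all 6 comparisons, whereas 11 of the 58 nearer to the limit did. By control level, 24 of the 32 genes with at least 20 CPM and 19 of the 64 with less met it in all 6. Both ENSOARG00020002318 and ENSOARG00020012387 met it in all 6, with log2 fold changes of -3.60 to -3.20 and -1.21 to -1.07 (DESeq2).

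**Figure D5:**
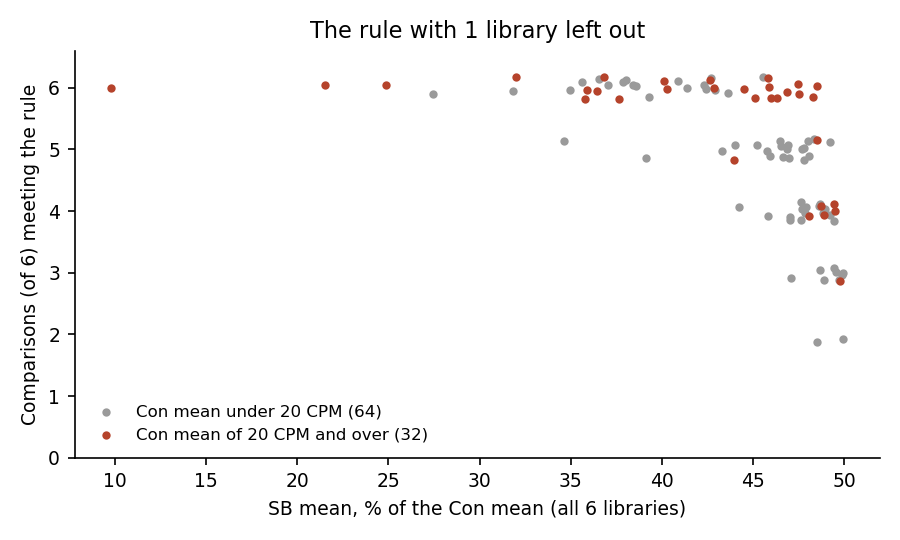
Number of the 6 comparisons with 1 library left out in which each of the 96 genes still met the rule (vertical, points spread for visibility) against its SB mean as a percent of the Con mean with all libraries (horizontal). Genes with a Con mean of at least 20 CPM are red and the others grey, and the genes that met the rule in 4 or fewer comparisons all have an SB mean above 40%.

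Across the 13103 genes tested with DESeq2, 234 were called lower in SB (1.79%), with both an adjusted p-value below 0.05 and a log2 fold change below -1. All 96 halved genes were tested, and 94 of them were called, a count that follows from the selection on the same contrast. The other 2 missed the log2 fold change limit by less than rounding. The edgeR quasi-likelihood test called all 96 (2.05% of tested genes were called lower). The median log2 fold change was -1.11 over the 96 genes and -0.01 over all tested genes, and the SE was 0.199 in the median gene. When DESeq2 tested instead whether the fold change itself lay beyond the limit, 8 tested genes were called lower (0.0611%), and 7 of these were among the 96 genes.

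The 94 halved genes called in DESeq2 were 40.2% of the 234 calls and 97.9% of the 96 genes. Of the 140 other calls, 112 were Ensembl genes with a Con mean under 5 CPM and 28 were loci without an Ensembl identifier. Among the 200 genes with the highest control means, 0 had a ratio of 0.5 or less, and the lowest ratio there was 0.712.

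The number of halved genes depended on how the libraries were scaled. Total-count scaling shifted the median of all tested genes by -0.20 on the log2 scale. With it, 317 genes met the rule and 87 met the mirror rule, beside 96 and 133 with size factors. Halved genes were then 78.5% of the genes of either kind, beside 41.9%. This scaling lowered the SB to Con ratios of all genes by a similar factor, and the 96 genes were all among the 317. For the same reason, their median log2 fold change relative to the median of all tested genes was -1.10 with either scaling.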

How the data were processed

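RNA sequencing counts from 6 libraries (3 Con, 3 SB) were used. As the study's methods describe, the authors filtered low-quality reads (CASAVA, version 1.8 in the submitters' processing notes) and mapped paired-end reads to the sheep assembly Oar_rambouillet_v1.0 with HISAT2. The deposited values are raw counts per gene identifier, not normalised by the authors. The counting tool, annotation release and strand setting are not given in the sources used here, so the counts of genes that overlap or have near-identical copies are uncertain. Groups and replicate numbers came from the sample titles, and count columns were matched to samples by name.

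Normalised counts are counts divided by median-of-ratios size factors, taken over all rows with no zero count. CPM is the count per 1000000 of the column total. A gene was tested if every sample of Con or of SB had at least 10 counts of it; tests were run with DESeq2 (version 1.42.0, R version 4.3.3), without covariates or shrinkage, and called lower where the Benjamini-Hochberg adjusted p-value was below 0.05 and the log2 fold change below -1. edgeR's quasi-likelihood test (version 4.0.16), other scalings, filters and thresholds, thinning, a replicate block and leaving out each library were alternatives. Centring by level class, other ratio limits, size factors over Ensembl rows alone and the count of left-out comparisons per gene were added after seeing the data. Both tools were also run on simulated data whose changed genes lay beyond the log2 fold change limit. This run did not assess calls near the limit.

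The genes, the rule and the settings were chosen with earlier results of these data known. Identifiers printed were the gene with the lowest SB to Con ratio and the gene with the highest control CPM. Of the Ensembl identifiers, 0 matched the RefSeq gene table (assembly ARS-UI_Ramb_v3.0), so gene names, lengths, positions and sequences were not used here, and the pathway and cell type marker lists written by gene symbol were not analysed here.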

Additional observations from a re-analysis of the deposited data

How the results depend on the processing

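All 96 genes kept a negative log2 fold change in the 14 other fits across genes. The 2 named genes passed both thresholds in each of these fits. The selection had required every SB value to lie below every Con value, so these signs were largely fixed by it. The number of genes that met the rule was 60 with a minimum of 10 CPM, 165 with 2 CPM, 317 with total-count scaling, 56 after centring by level class, 38 with a ratio limit of 0.45 and 207 with 0.55. The other alternatives with all 6 libraries gave 94 to 113 genes. Leaving out 1 library gave 92 to 116 genes, with 76 to 86 of the 96 genes among them. A ratio of medians gave 113 genes, of which 82 were shared. With size factors over Ensembl rows alone, another reading of the rule, 97 genes met it. Of the 96 genes, 7 were called when DESeq2 tested for a fold change beyond the limit of 2, beside 8 of 13103 tested genes. After thinning, 89 were called, beside 225 of 13051 tested genes. With 1 library left out, 75 to 86 were called, beside 174 to 223 of 13103. The 96 genes were chosen on the same contrast, so these counts are a description. The median log2 fold change moved to -1.30 with total-count scaling, by the construction of that scaling, and was -1.16 to -1.09 with 1 library left out. The difference in the share of counts (SB minus Con) was -0.183 percentage points. It was -0.199 without the 10 highest rows and -0.187 to -0.180 with 1 library left out.

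Deviations of same-numbered Con and SB samples had r of -0.00317 to 0.0587 across genes, and those of differently numbered samples -0.0374 to 0.0260. All were small, so the numbers gave no clear sign of pairing, which such correlations cannot exclude. In fits with a replicate block, DESeq2 and edgeR each called 96 of the 96 genes, which follows from the selection on the same contrast. Over all 13103 tested genes, these fits called 183 and 256 lower in SB. Counting error limits the genes at low levels, where 10 genes had fewer than 30 counts in at least 1 library.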

Other observations

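Genes outside the selection also showed SB levels of at most 0.5 times Con without overlap. Among 2068 Ensembl genes with a Con mean from 1 to 5 CPM, 127 (6.14%) did so, and 128 met the mirror rule. Among 261 loci without an Ensembl identifier and with a Con mean of at least 5 CPM, 8 (3.07%) did so, with ratios of 0.290 to 0.493. Of the 261 loci, 1 met the mirror rule. No upper limit on the control level was applied to these loci.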
